A study of Drosophila melanogaster with 6 samples.

Results

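The 2 CBP knockdown samples of S2 cells were compared with the 2 control knockdown samples, out of 6 samples in the series; the samples were chosen by their titles. S2 is an established Drosophila melanogaster line with features of blood cells, grown from embryos. The other 2 samples carry a knockdown of NAP-1, a histone chaperone. In the linear model they only helped estimate the spread, and they also counted toward the minimum mean level that a gene needed to be tested. The labels give the knockdowns as the only difference in genotype, and the sources used here do not give the reagent, its duration or its control target. Polyadenylated RNA was sequenced from a stranded kit, and by its title the series is about H1, the linker histone, and its acetylation. The comparison therefore asks which transcripts differ when CBP is reduced.

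CBP, the protein encoded by nej, is a large acetyltransferase and coactivator. It acetylates histone H3 at active enhancers and promoters, including the lysine that Polycomb complexes methylate, and in flies it works with the transcription factors at the end of the Hedgehog, Dpp and Toll pathways. In male flies a separate acetyltransferase complex, MSL, acetylates histone H4 along the X chromosome, and transcription of the single X is raised to balance the autosomes. S2 cells are regarded as male and assemble that complex.

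Values are RPKM, reads scaled to feature length and to the depth of the sample, summed over the isoforms of a gene that the table lists with a mean of at least 1 RPKM. The table is partial: its features named by symbol run in order, capitals first, from 128up to NLaz, and other genes enter only through RefSeq mRNAs. Of the genes tested 982 rest on RefSeq mRNAs alone, so a sum may hold part of a gene, and counts of list members cover only the names listed. The 3987 genes tested averaged 1 RPKM or more across the 6 samples. Fold changes are CBP knockdown minus control on the scale log2(RPKM + 1), which understates the change of low genes. A gene was called at a Benjamini-Hochberg adjusted p under 0.05 in limma over all genes. Whether the 2 samples of a group were separate cultures is not stated in the labels, and p-values reflect the spread among these libraries alone, part of which may be technical. There were 5271196 and 5362319 alignments in the CBP knockdown samples, against 4838376 and 5188013 in the control samples. The 20 most abundant genes took 33.1% and 38.4% of summed RPKM in CBP knockdown, against 23.3% and 27.8% in control. Of 10 hemocyte markers in the table, 5 stayed under 0.5 RPKM in every sample, Hml, NimC1, srp, He and Mmp2. The markers measured here summed to 204 and 185 RPKM in CBP knockdown and to 302 and 296 RPKM in control. Markers of neurons, muscle, fat body, germline and ovarian somatic cells summed to at most 5.05 RPKM in these 4 samples. The partial table held only 7, 7, 3, 4 and 2 of them, in that order, so markers missing from it may lower these sums. In these bulk samples, fewer cells of a type and less RNA per cell cannot be told apart.

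Of the nej gene itself, 3 RefSeq mRNAs were listed, and their sum, which may be part of its level, was low in every sample. It stood at 0.899 and 0.363 RPKM in the CBP knockdown samples, against 3.25 and 2.47 RPKM in the control samples. Both CBP knockdown values lay below both control values. limma put the difference at -1.26 ± 0.37 on the log2 scale (SE, adjusted p = 0.0466). This call depends on the sum: 2 of the 3 mRNAs averaged under 1 RPKM and were kept for nej alone among the genes tested. In a fit over single features none of the 3 was called, with adjusted p of 0.0755, 0.284 and 0.89 (limma), and the mRNA over the minimum had the smallest of these and a fold change of -1.14. The nej mRNA is among the longest in the table, with a median annotated length of 13566.5 nt. With the trend on transcript length removed, its fold change was 0.23 (limma, adjusted p = 0.556), so the sign turned, and nej on that scale does not check the labels. With any 1 of the 4 CBP knockdown and control samples left out, the adjusted p of nej lay between 0.068 and 0.228.

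Of the 3987 genes, 339 were higher in CBP knockdown than in control, 8.5% of those tested, and 693 were lower, 17.4%. The values of the 2 groups did not overlap for 3034 genes, 76.1%. Another scaling, by the median of ratios, gave 494 higher and 639 lower, and quantile normalization gave 371 and 413. The fold change fell with transcript length, as the plot of calls by length shows. Its median was 0.29 in the first of 5 length bins, the shortest genes, and -1.07 in the longest. The gap between those bins was -0.42 between CBP knockdown replicates 2 and 1 and -0.28 between control replicates 2 and 1, so replicates of a group differed in it as well. A smooth trend on length was therefore also removed from each sample. Values below are as fitted unless that is named, and for the lists it is said which calls were kept, lost or gained after that removal. After that step 439 genes were higher, 11.2% of the 3937 with a length, and 389 were lower, 9.88%. Calls made both ways numbered 278 higher, 7.06%, and 360 lower, 9.14%, and 0 genes were called in opposite directions. Both numbers of calls rest on single libraries. Without CBP knockdown replicate 2, or without control replicate 1, limma called 0 genes in either direction. At an unadjusted p under 0.05 there were 341 higher and 633 lower without CBP knockdown replicate 2, and 315 higher and 695 lower without control replicate 1, against 660 and 1086 with all samples. Without control replicate 2 the counts were 31 higher and 177 lower, and without CBP knockdown replicate 1 they were 109 and 592. Every count given below for a chromosome or a list was accordingly 0 without CBP knockdown replicate 2 or control replicate 1.

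**Figure D1:**
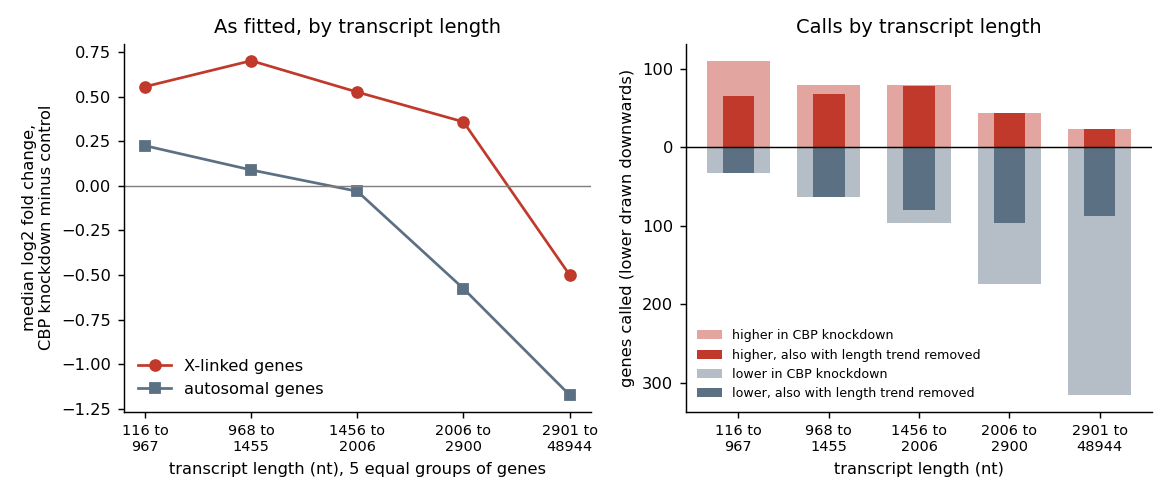
Left, median log2 fold change (CBP knockdown minus control, as fitted) in 5 equal groups of genes by transcript length, for X-linked genes (red circles) and autosomal genes (grey squares). Right, number of genes called higher (red) and lower (grey, drawn downwards) in each group, wide pale bars as fitted and narrow dark bars for those also called with the length trend removed. The longest group held 315 lower calls, 87 of them kept, and X-linked medians lie above autosomal ones in all 5 groups.

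X-linked transcripts stood apart in CBP knockdown. RPKM values are relative, so more X-linked RNA and less autosomal RNA cannot be told apart. From RNA alone, a change in chromosome copies and a change in RNA per copy cannot be told apart either. The X held 723 genes, 18.1% of all those tested, and 165 of the 339 genes higher in CBP knockdown, or 48.7%. Of X-linked genes 22.8% were higher and 10.4% lower. On the large autosome arms 2L, 2R, 3L and 3R, with 3196 genes, 5.29% were higher and 18.9% lower. The share higher was 3.67% on 2L, 7.75% on 2R, 4.52% on 3L and 5.2% on 3R. The X had the largest share of higher calls and the smallest share of lower calls of the arms measured. Chromosome 4, with 17 genes, had 1 higher and 3 lower.

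In levels, the median X-linked gene stood at 6.45 and 5.25 RPKM in CBP knockdown, against 4.87 and 4.9 RPKM in control. The median autosomal gene stood at 4.8 and 3.61 RPKM in CBP knockdown, against 6.05 and 5.76 RPKM in control. The ratio of the 2 medians was 1.34 and 1.45 in the CBP knockdown samples, 0.829 and 0.89 in the NAP-1 knockdown samples, and 0.805 and 0.85 in the control samples. Both CBP knockdown samples had a ratio above 1, and the other 4 samples lay below it. X-linked genes took 21.8% and 21.8% of summed RPKM in CBP knockdown and 15.03% and 14.58% in control. A single X-linked noncoding RNA, CR34335, held a large part of that share, with 3350.4 and 4211 RPKM in CBP knockdown, against 888 and 1093 RPKM in control. It was called higher as fitted and not with the length trend removed (limma, adjusted p = 0.108). Without CR34335 the X-linked share was 18.1% and 17.4% in CBP knockdown and 13.8% and 13.2% in control.

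**Figure D2:**
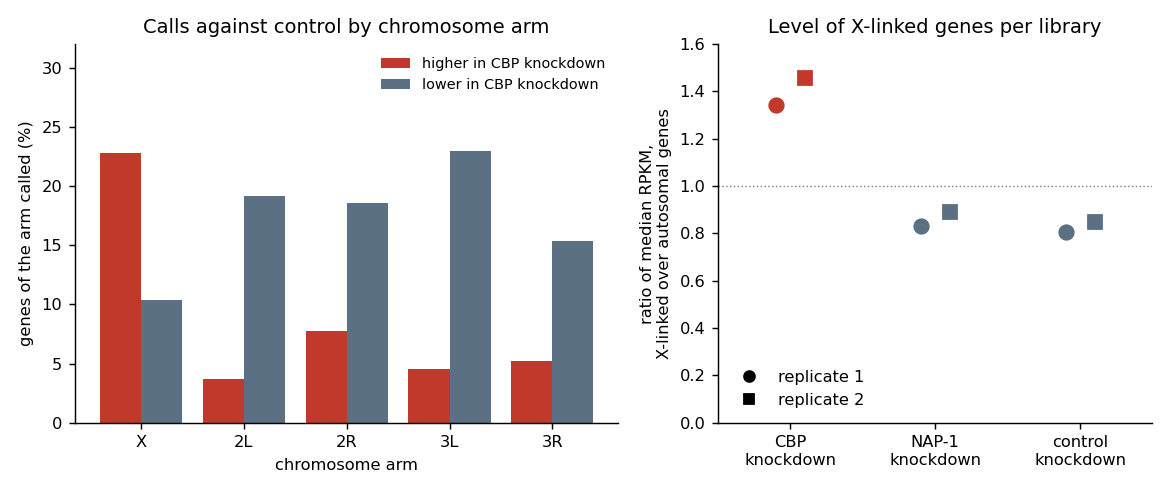
Left, percent of the measured genes of each chromosome arm called higher (red) or lower (grey) in CBP knockdown than in control. Right, ratio of the median RPKM of X-linked genes to that of autosomal genes in each library, by group, with circles for replicate 1 and squares for replicate 2. The 2 CBP knockdown libraries stand at 1.34 and 1.45, and the other 4 between 0.805 and 0.89.

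The median log2 fold change was 0.36 on the X and -0.24 on the large autosome arms, a gap of 0.61. In the 4 pairs of a CBP knockdown with a control sample the gap was 0.54, 0.53, 0.68 and 0.65. It was 0.08 between the CBP knockdown replicates and 0.05 between the control replicates. The 4 pairs between groups thus all exceeded both pairs within groups. An exact two-sided permutation test of the X minus autosome gap over the 4 samples gave p = 0.333, the smallest p that 2 against 2 samples allow. With the length trend removed the gap was 0.71, with medians of 0.68 on the X and -0.03 on the autosomes, and 224 X-linked genes were higher and 35 lower. The X-linked genes tested are the longer ones, with a median length of 1936 nt against 1655 nt on the autosomes. Relative to the median over all genes, which was -0.15 as fitted, 0.01 after median-of-ratios scaling and 0.12 after quantile normalization, the X stood higher under each scaling. The gap was 0.61 after the first of these and 0.58 after the second. Without any single library it lay between 0.55 and 0.70. Among the 2756 genes listed only by symbol the gap was 0.60, with medians of 0.47 on the X and -0.14 on the autosomes. Among the 982 listed only as RefSeq mRNAs it was 0.37, with medians of -0.27 and -0.64, so the X-linked median was below 0 there. Among the 249 listed under both kinds of feature it was 0.85.

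The difference was spread over lengths and levels. By length, the X minus autosome gap was 0.33 in the shortest bin and 0.61, 0.56, 0.93 and 0.67 in the next 4. In the longest bin, 21 of the 23 genes called higher were X-linked. Of the 181 X-linked genes there, however, 40 were lower. Their median was -0.50, a fall, against -1.17 for autosomal genes of that bin. By mean level, the gap was 0.38 in the lowest of 4 equal groups of genes and 0.71, 0.70 and 0.57 in the groups above it. When the X was divided into 10 groups of genes by their order, the median with the length trend removed lay between 0.02 and 1.00. The 40 autosomal groups lay between -0.48 and 0.33. Of the 10 X-linked groups, 9 stood above every autosomal group, and the exception was the eighth. As fitted, 9 of the 10 X-linked groups had more higher than lower calls, and 0 of the 40 autosomal groups did.

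**Figure D3:**
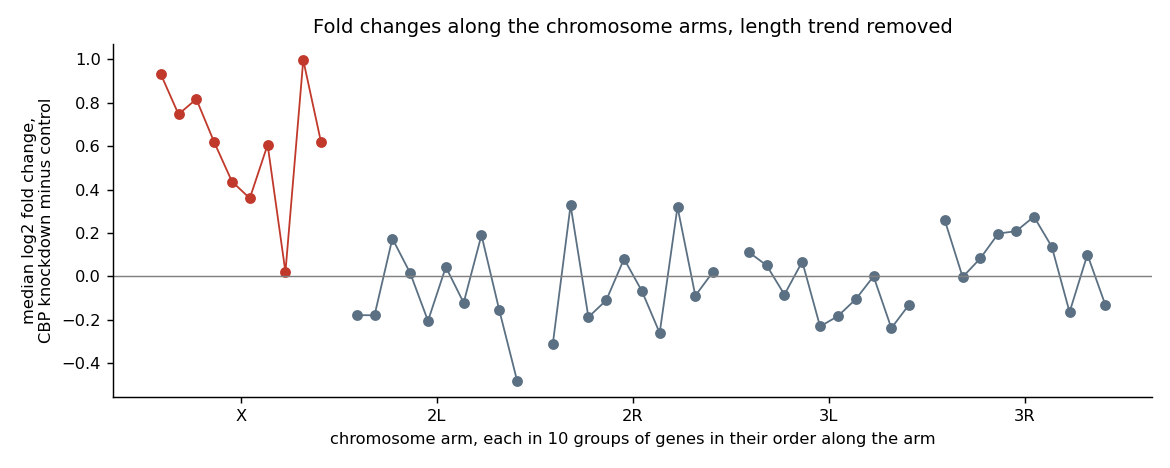
Median log2 fold change (CBP knockdown minus control, length trend removed) of the genes in 10 consecutive groups along each chromosome arm, X in red and autosome arms in grey. Of the X-linked groups 9 lie above every autosomal group, whose highest median is 0.33.

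Some of the X-linked genes called higher were abundant. Gapdh2, a glyceraldehyde-3-phosphate dehydrogenase of glycolysis, had 682 and 836 RPKM in CBP knockdown, against 300.3 and 317 RPKM in control. Its values did not overlap between groups, and it rose by 1.29 ± 0.31 (SE; limma, adjusted p = 0.0313). CG3011, which encodes serine hydroxymethyltransferase of folate metabolism, had 331 and 415 RPKM in CBP knockdown, against 74.4 and 66.5 RPKM in control. It rose by 2.38 ± 0.42 (limma, adjusted p = 0.0176), the most abundant of the 12 largest rises. Hexo2, a lysosomal hexosaminidase, had 149 and 210.3 RPKM in CBP knockdown and 54.8 and 64.3 RPKM in control, and deltaCOP, a subunit of the COPI vesicle coat, had 111 and 149 and 35.4 and 40.7 RPKM in those groups. Both rose, with fold changes of 1.56 and 1.73.

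The 6 largest rises among the longest genes were all X-linked. CG15618, the fly THADA gene, stood at 14 and 17.1 RPKM in CBP knockdown, against 2.73 and 2.83 RPKM in control. Kap3, a subunit of the kinesin-II motor, stood at 8.82 and 9.11 RPKM, against 1.04 and 2.42 RPKM in control. CG1597, the glucosidase that first trims N-glycans in the endoplasmic reticulum, stood at 29.7 and 37.7 RPKM, against 9.41 and 9.1 RPKM in control. In each the CBP knockdown values lay above both control values. The Golgi protein gene CG4557, the vesicle-fusion gene car and IntS2, a subunit of the Integrator complex that processes small nuclear RNAs, rose by 1.72, 1.61 and 1.59. All 6 were also called with the length trend removed, with fold changes between 2.37 and 3.34. That removal raises the fold changes of long genes, and all 23 higher calls of the longest bin were kept. Keeping the call is therefore no separate check of these 6.

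The difference was not shared by every X-linked gene, and 75 were lower. Ilp6, an insulin-like peptide, was listed at 0.264 and under 0.01 RPKM in CBP knockdown, against 10.8 and 8.44 RPKM in control. It fell by 3.23 on the log2 scale (SE 0.41; limma, adjusted p = 0.0145). Stim, the calcium sensor of the endoplasmic reticulum, had 2.82 and under 0.01 RPKM in CBP knockdown and 15.1 and 8.86 RPKM in control, and the small GTPase gene Cdc42 had 8.13 and 1.91 and 40.2 and 37.1 RPKM in those groups. Both fell as fitted and with the length trend removed. Of genes tied to dosage compensation, looked up after the X had been seen, Clamp, Pof and Sxl were measured. Clamp, a zinc-finger protein that helps MSL bind the X, stood at 1.78 and 0.605 RPKM in CBP knockdown, against 4.28 and 3.96 RPKM in control (limma, adjusted p = 0.171). Pof, which binds chromosome 4, stood at 4.72 and 3.06 RPKM, against 1.63 and 0.693 RPKM in control (limma, adjusted p = 0.138). Sxl, the sex-determination switch, had 0.572 and 0.117 RPKM, against 3.11 and 2.01 RPKM in control, and its fall (limma, adjusted p = 0.041) lost its call with the length trend removed (0.14). The subunits of MSL itself and its roX RNAs were not analysed here.

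Among the 12 largest rises called both ways, 7 were X-linked and 5 autosomal, and most are known only by annotation numbers. CG42792 on 2L stood at 27 and 19.1 RPKM in CBP knockdown and under 0.01 RPKM in both control samples, close to silent there. One mRNA of CG43210 on 3R stood at 10.6 and 18.8 RPKM in CBP knockdown, against under 0.01 and 0.159 RPKM in control. Its other features have the same values as features of CG43194 and were counted there, at 12.7 and 11.6 RPKM in CBP knockdown and 20.5 and 20.6 RPKM in control, so the value of this mRNA is not the level of the gene. X-linked CG42259 had 57.3 and 52.7 RPKM in CBP knockdown, against 2.17 and 4.01 RPKM in control, and rose by 3.81 ± 0.35 (SE; limma, adjusted p = 0.0145). CG7280, the sulfite oxidase gene shop, also X-linked, had 13.2 and 13 RPKM, against under 0.01 and 1.4 RPKM in control. CG11655 had 63.6 and 79.5 RPKM, against 7.6 and 7.13 RPKM in control, and por, the acyltransferase that lipidates Wnt ligands, had 20.3 and 24.6 RPKM, against 2.92 and 3.39 RPKM in control. In all of these the replicates of a group lay close together beside the difference between groups, as the rule that named them favours. CG44475, CG16713, CG15739, CG13559 and CG9132 completed the 12, with fold changes between 2.56 and 3.37.

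**Figure D4:**
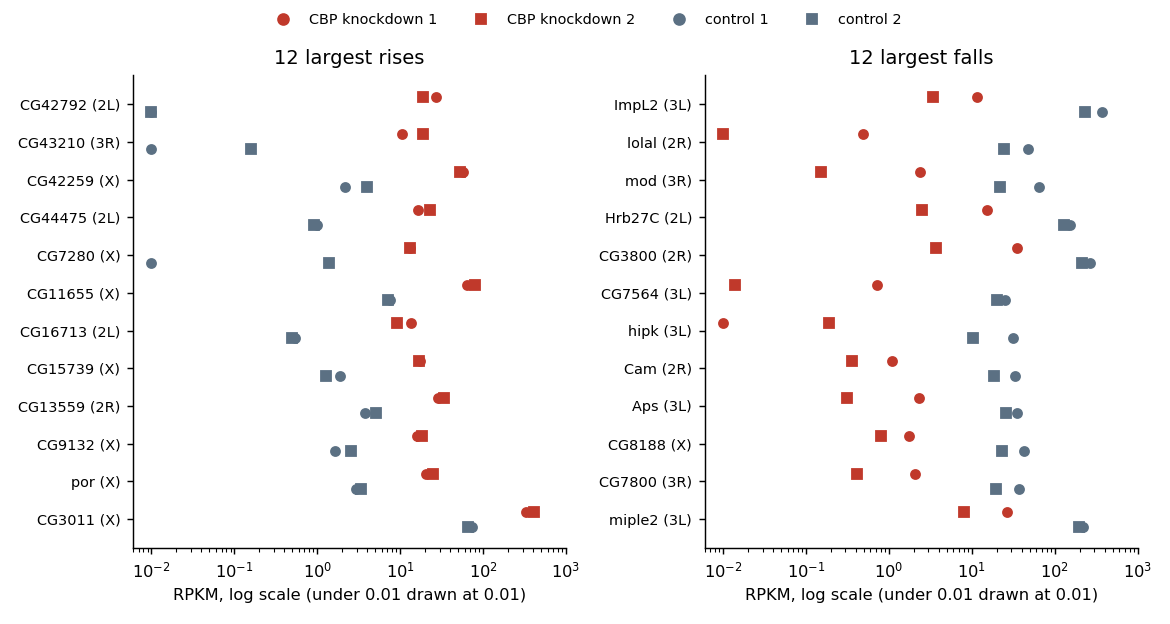
RPKM (log axis, values under 0.01 drawn at 0.01) of the 12 largest rises and 12 largest falls called as fitted and with the length trend removed, with the chromosome arm in brackets. Red symbols are the CBP knockdown samples and grey symbols the control samples, circles for replicate 1 and squares for replicate 2. The groups do not overlap for any of the 24 genes, as the naming rule required, and CBP knockdown values of the falls are spread more widely than control values.

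The 12 largest falls held 1 X-linked gene, CG8188. ImpL2, whose protein binds and antagonises insulin-like peptides, had 11.6 and 3.45 RPKM in CBP knockdown, against 376 and 232 RPKM in control. It was lower, with a log2 difference of -5.31 ± 0.57 (SE; limma, adjusted p = 0.0145), and with the length trend removed the value was -5.26. miple2, a secreted growth factor of the midkine family, had 26.39 and 8.1 RPKM, against 223 and 197 RPKM in control. CG3800, a nucleic acid-binding protein of the CNBP type, had 35.4 and 3.7 RPKM, against 267 and 214 RPKM in control. In all 3, replicate 2 of CBP knockdown was the lowest of the 4 samples. lolal, a BTB-domain partner of the GAGA factor, had 0.486 RPKM in replicate 1 of CBP knockdown and under 0.01 RPKM in replicate 2, against 48.1 and 24.6 RPKM in control. Aps, a phosphatase of inositol pyrophosphates, fell by 3.89, and CG7564, CG8188 and CG7800 fell by 4.14, 3.86 and 3.75.

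Gene lists of pathways and complexes are given by their called members beside the 8.5% of all genes called higher and 17.4% called lower, and their medians beside -0.15 over all genes. These shares are not matched to a list by the kind of feature its members were listed under. Of the 982 genes listed only as RefSeq mRNAs, 61 were higher and 258 lower. Of the 2756 listed only by symbol, 252 were higher and 385 lower. In every list the values of a group's replicates enter the same fit, and no test of a list as a whole was made. The lists hold more names than were measured, such as 81 for the cytosolic ribosomal proteins, of which 24 were measured, and 32 for the proteasome, of which 6 were. Over 38 lists 542 genes were measured. Of these 49 were higher, 21 of them among the 86 on the X, and 111 were lower, 15 of them on the X.

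**Figure D5:**
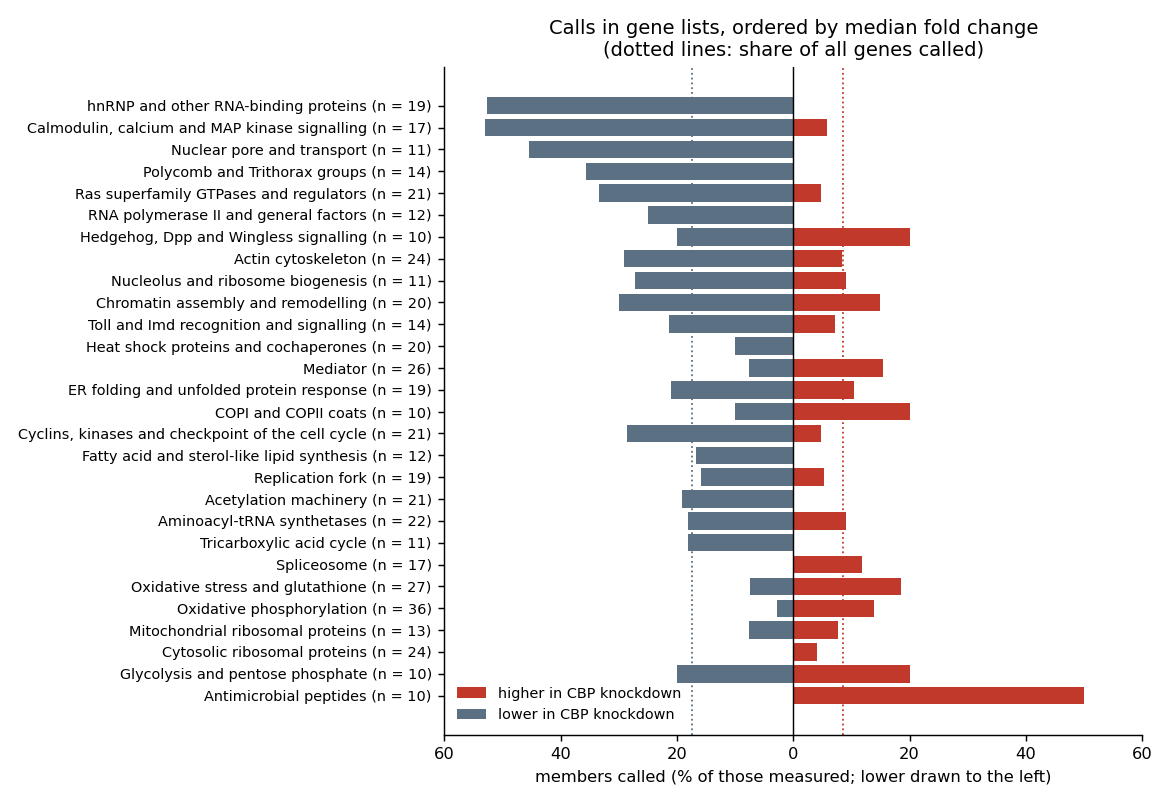
Percent of the measured members called higher (red, to the right) or lower (grey, to the left) in CBP knockdown, for the lists with at least 10 measured members, in order of their median fold change. Dotted lines mark the 8.5% of all genes called higher and 17.4% called lower. Near the top, RNA-binding proteins have 10 of 19 members lower, and at the bottom antimicrobial peptides have 5 of 10 higher.

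Insulin and TOR signalling, which couples nutrients to growth, had 5 of 7 measured members lower and 0 higher, with a median of -2.23. With the length trend removed 4 of 6 were lower and the median was -1.75. Besides the antagonist ImpL2, and Ilp6 outside the list, these lay below the receptor. Pi3K21B, the adaptor subunit of PI3-kinase, had 1.1 and 0.668 RPKM in CBP knockdown, against 11.2 and 7.38 RPKM in control. Lk6, the kinase that phosphorylates eIF4E, had 0.824 and 0.435 RPKM, against 24.6 and 15.8 RPKM in control. The cap-binding factor gene eIF-4E had 0.679 and 1.01 RPKM, against 7.46 and 5.29 RPKM in control, and all 4 genes kept their call with the length trend removed. S6k, the ribosomal S6 kinase, had 1.05 and 0.399 RPKM, against 9.21 and 5.18 RPKM in control, and lost its call there (limma, adjusted p = 0.0519). The kinase gene Tor and its partner Lst8 were not called. The list had 5 lower members with either other scaling too.

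Proteins that bind RNA had 10 of 19 members lower and 0 higher, with a median of -1.73. On removal of the length trend 5 were lower and the median was -0.52, beside 0.08 over all genes on that scale. AGO2, the Argonaute of small interfering RNAs, had 14.8 and 4.42 RPKM in CBP knockdown, against 115.4 and 74.8 RPKM in control. It was lower, with a log2 difference of -3.34 ± 0.51 (SE; limma, adjusted p = 0.0163). Hrb27C, an hnRNP that acts in splicing and mRNA localisation, had 15.3 and 2.5 RPKM, against 153 and 129.7 RPKM in control, and the nucleolar protein gene mod had 2.35 and 0.154 and 64.1 and 22 RPKM in those groups. Fmr1, the fly homolog of the fragile X protein, a repressor of translation, had 2.04 and 0.368 RPKM, against 12.8 and 12.4 RPKM in control. These 4 and sqd, another hnRNP, kept their call with the length trend removed. AGO1 and gw, which carry out silencing by microRNAs, tral, smg and X-linked nonA did not. With quantile normalization 7 were lower. In the nucleolus list mod, CG12301 and Nopp140 were lower and Fib, the methyltransferase fibrillarin, was higher at 72.4 and 86.4 RPKM, against 31.8 and 38.6 RPKM in control. Those 4 of 11 members kept their calls with the length trend removed.

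Calcium and MAP kinase signalling had 9 of 17 members lower and 1 higher, with a median of -1.46. After removal of the length trend 5 were lower and 1 higher, with a median of -0.87. Cam, which encodes calmodulin, had 1.1 and 0.36 RPKM in CBP knockdown, against 33.1 and 18.8 RPKM in control. The nuclear kinase gene hipk stood under 0.01 and at 0.192 RPKM in the CBP knockdown samples, against 31.8 and 10.2 RPKM in control. The stress kinase gene p38a had 0.238 and 0.234 RPKM, against 10.2 and 5.28 RPKM in control. Those 3, Stim and the calcineurin subunit gene CanB2 kept their calls with the length trend removed. The Fos gene kay, the ETS repressor gene aop, the Orai channel gene olf186-F and the X-linked kinase gene slpr did not. The X-linked kinase gene Dsor1, the MEK of the ERK branch, rose to 13.9 and 16.61 RPKM, against 4.43 and 4.59 RPKM in control. It was the 1 member of the list with a higher call.

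Ras superfamily GTPases and their regulators had 7 of 21 members lower and 1 higher, with a median of -1.28. Of the 20 with a length, 5 were lower and 1 higher after that removal, with a median of -1.06. R, which encodes Rap1, had 10.5 and 2.36 RPKM in CBP knockdown, against 89.9 and 91.5 RPKM in control. The endosomal GTPase genes Rab5 and Rab7 had 23.4 and 7.21 and 7.94 and 1.38 RPKM in CBP knockdown, against 60 and 49.7 and 34.2 and 20.4 RPKM in control. Ced-12, an activator of Rac that acts in engulfment and cell migration, had 0.369 and 0.0604 RPKM, against 5.47 and 5 RPKM in control. Ced-12, Cdc42, Rab7, Arf51F and Rab5 kept their calls with the length trend removed, R had no length, and RanGAP lost its call. The X-linked gene Rab21 was higher as fitted, and Gdi was the member higher with the trend removed. Without CBP knockdown replicate 1, 10 members were lower.

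Genes of the actin cytoskeleton had 7 of 24 members lower and 2 higher, and 5 lower and 2 higher with the length trend removed. Act42A, a cytoplasmic actin, had 72 and 17.6 RPKM in CBP knockdown, against 249.8 and 206 RPKM in control, and reads of near-identical actin genes may be shared among them. The filament elongation factor gene ena had 0.323 and 0.0245 RPKM, against 12.9 and 8.86 RPKM in control. Hem and Abi, subunits of the SCAR complex that switches on branched actin, fell by 2.14 and 1.76, and Tm1, a tropomyosin, fell by 1.81. All 5 kept their calls with the length trend removed. Actn, the X-linked alpha-actinin gene, rose to 8.16 and 5.38 RPKM, against 1.88 and 1.67 RPKM in control. With quantile normalization 1 member was higher and 3 were lower. Of 7 matrix genes 4 were lower, with a median of -1.12 as fitted and -0.21 with the length trend removed, where 3 were lower. LanA had 2.53 and 1.27 RPKM, against 57.5 and 16.2 RPKM in control, and with LanB1 and Glt kept its call with the length trend removed. The collagen gene vkg, a hemocyte product, had 31.5 and 25.2 RPKM, against 60.8 and 63.9 RPKM in control, and its value turned to 0.20 there (limma, adjusted p = 0.593).

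Chromatin genes were called in both directions. Of 20 assembly and remodelling genes, 6 were lower and 3 higher, and of the 19 with a length 4 were lower and 3 higher with the length trend removed. Iswi, the ATPase of several nucleosome-sliding complexes, had 1.28 and 0.481 RPKM in CBP knockdown, against 12.7 and 10.7 RPKM in control. Bap170, which defines one form of the Brahma complex, had 1.61 and 0.962 RPKM, against 12.6 and 10.9 RPKM in control. Bap60, an X-linked subunit shared by the Brahma complexes, had 70.2 and 83.4 RPKM, against 31.4 and 32.7 RPKM in control. So 2 subunits of Brahma complexes differed in opposite directions. Hira, the X-linked chaperone of histone H3.3, stood at 13.8 and 15.9 RPKM, against 5.28 and 5.43 RPKM in control, while Caf1-180, the large subunit of the replication-coupled assembly factor and X-linked too, stood at 0.754 and 0.261 RPKM, against 10.1 and 6.12 RPKM in control. All 5 kept their calls with the length trend removed. Nap1 itself was not called, at 325 and 365 RPKM in CBP knockdown and 219.6 and 243 RPKM in control (limma, adjusted p = 0.148).

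Polycomb and Trithorax genes, regulators that set and oppose repression by histone H3 methylation, had 5 of 14 members lower and 0 higher as fitted. Pcl, Caf1, lid, Scm and fs(1)h were the 5. Of these fs(1)h is X-linked, and Caf1 had no length. The median length over the 13 members with one was 3918 nt, and with the length trend removed 0 of those 13 were called (limma). At an unadjusted p under 0.05 on that scale 4 were lower and 1 higher. In the acetylation list Nipped-A, which encodes the large scaffold of the Tip60 and SAGA acetyltransferase complexes, had 2.1 and 0.586 RPKM in CBP knockdown, against 11.1 and 9.96 RPKM in control. With chm, an acetyltransferase, Sin3A, a deacetylase corepressor, and nej it made 4 lower of 21. None of those 4 kept its call with the length trend removed, where the X-linked genes Ing3 and HDAC6 were called higher. Of 8 linker and replacement histones 1 was lower, the histone variant gene His2Av, both as fitted (limma, adjusted p = 0.049) and with the length trend removed. It stood at 7.83 and 5.31 RPKM, against 15.8 and 14.7 RPKM in control, and its call was lost at either other pseudocount and with either other scaling.

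For the pathways whose transcription factors use CBP, 10 genes of Hedgehog, Dpp and Wingless signalling were measured. Those called as fitted were all X-linked, and each has a role in Wingless signalling, which need not be its only role. arm, the fly beta-catenin, had 52.8 and 51 RPKM in CBP knockdown, against 14.9 and 20.7 RPKM in control, and rose with por. sgg, the GSK3 kinase, had 1.41 and 0.856 RPKM, against 4.74 and 4.98 RPKM in control, and CkIalpha, the casein kinase, had 0.508 and 0.133 RPKM, against 3.13 and 3.18 RPKM in control. Both phosphorylate Armadillo for its destruction, and both calls were lost with the length trend removed (limma, adjusted p = 0.147 and 0.0654). The Dpp mediators Mad and Med were not called as fitted, and Med was higher with the length trend removed. Mediator, the coactivator complex between activators and RNA polymerase II, had 4 higher and 2 lower of 26. MED18, MED8, MED22 and MED7 were higher and MED15 and MED6 lower. MED18, MED8 and MED6 kept their calls with the length trend removed, where MED31 was called lower. Of 12 RNA polymerase II and general factors, 3 were lower. The polymerase subunit gene RpII15 had 3.11 and 1.2 RPKM, against 14.6 and 7.5 RPKM in control, and with Rpb12 kept its call with the length trend removed, and CycT of the elongation kinase P-TEFb did not, while NELF-B, X-linked, was called higher there.

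Toll and Imd signalling genes and antimicrobial peptides differed in their calls. Of 14 Toll and Imd pathway genes, 3 were lower and 1 higher, close to the shares over all genes. The Toll ligand gene spz had 0.521 and 0.0952 RPKM in CBP knockdown, against 7.14 and 4.8 RPKM in control. The Toll adaptor gene tub had 3.57 and 0.875 RPKM, against 13 and 10.9 RPKM in control, and akirin, a nuclear cofactor of the Imd pathway, had 5.36 and 0.469 RPKM, against 23.9 and 15.3 RPKM in control. Dredd, the X-linked caspase that cleaves Imd and Relish, was the gene higher, at 4 and 3.96 RPKM, against 1.31 and 1.05 RPKM in control. All 4 kept their calls with the length trend removed. Of 10 antimicrobial peptides 5 were higher and 0 lower, with a median of 1.43. Of the 9 with a length 2 were higher with the length trend removed, with a median of 1.04. AttA, an attacin, had 30.3 and 29.3 RPKM, against 5.93 and 6.15 RPKM in control. AttA and DptB kept their calls with the length trend removed, and CecA1, Mtk and CecC did not. Members of the attacin and cecropin families resemble each other closely, and how reads were split among them is uncertain.

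Detoxification and respiration genes gave small counts. Among 27 genes of oxidative stress and glutathione, calls were higher for 5 and lower for 2. GstD1, a glutathione S-transferase, had 143 and 166 RPKM in CBP knockdown, against 40.7 and 45.8 RPKM in control. GstT1 had 46 and 53.2 RPKM, against 20.1 and 20.4 RPKM in control, and GstD1, GstD2, GstE3 and GstT1 kept their calls with the length trend removed. The X-linked peroxiredoxin gene Jafrac1 stood lower, at 11.7 and 5.06 RPKM, against 31.3 and 39.3 RPKM in control, and MTF-1, the metal-responsive transcription factor gene, was the other and lost its call there. Sod, a superoxide dismutase and the fifth gene higher, had no length. Among 36 genes of oxidative phosphorylation, calls were higher for 5 and lower for 1, with a median of 0.34 as fitted and 0.13 with the length trend removed, beside 0.08 over all genes on that scale, where 3 were higher and 2 lower.

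Of 10 glycolysis and pentose phosphate genes 2 were higher and 2 lower, and the same numbers were called with the length trend removed. Hex-A, the X-linked hexokinase that opens glycolysis, had 2.27 and 0.557 RPKM in CBP knockdown, against 12.1 and 13.3 RPKM in control. ImpL3, the lactate dehydrogenase, had 89.9 and 125 RPKM, against 325 and 388 RPKM in control. Both fell, while Gapdh2 and Pgd, the phosphogluconate dehydrogenase of the pentose phosphate pathway, rose, Pgd to 81.4 and 106 RPKM, against 28.4 and 32.1 RPKM in control. In the citric acid cycle 2 of 11 genes were lower both ways, and in lipid synthesis 2 of 12, shares close to the 17.4% over all genes. AcCoAS, a lipid synthesis gene, was called higher with the length trend removed. Acon, the mitochondrial aconitase, had 6.74 and 7.39 RPKM, against 34.7 and 31.5 RPKM in control. CG5028, an isocitrate dehydrogenase subunit, fell by 2.38. CG3523, the fatty acid synthase, had 5.16 and 2.49 RPKM, against 70.2 and 47.4 RPKM in control, and Fpps, which makes farnesyl diphosphate for the isoprenoid pathway, had 10.9 and 4.04 RPKM, against 64 and 42.1 RPKM in control. All 8 kept their calls with the length trend removed.

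Of the cell cycle genes 14 of 21 were not called, and of the replication fork genes 15 of 19, beside 2955 of all 3987 genes. Of 21 cyclin, kinase and checkpoint genes 6 were lower and 1, Cdk5, was higher, and with the length trend removed 2 were lower. CycA, the mitotic cyclin, had 3.78 and 1.65 RPKM in CBP knockdown, against 11.5 and 11.2 RPKM in control. The E2F partner gene Dp had 1.91 and 0.412 RPKM, against 7.09 and 6.79 RPKM in control. These 2 and Cdk5 kept their calls with the length trend removed, and BubR1, Mad1, CycG and polo did not. Of 19 replication fork genes 3 were lower and 1 higher, and with the length trend removed 1 was lower and 1 higher. DNA-ligI, the ligase of lagging-strand synthesis, had 1.39 and 0.816 RPKM, against 5.78 and 5.21 RPKM in control. Mcm3, an X-linked subunit of the replicative helicase, had 15.4 and 15.7 RPKM, against 6.84 and 7.16 RPKM in control, and both kept their calls with the length trend removed.

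Transport, translation and folding completed the groups. Of 11 nuclear pore and transport genes 5 were lower, Cas, Nup358, tho2, Trn and X-linked Ntf-2, and Ntf-2 kept its call with the length trend removed. Cas and Trn had no length, and CG14215, X-linked, was called higher with the trend removed. Of 22 aminoacyl-tRNA synthetases 4 were lower and 2 higher as fitted, against 2 lower and 4 higher with the length trend removed, where Aats-gly and Aats-ile lost their calls. The 2 higher as fitted, Aats-his and CG2263, were X-linked, as was Aats-arg, lower both ways. Aats-glupro, with 1.21 and 0.565 RPKM in CBP knockdown, against 11.6 and 10.2 RPKM in control, was the lower one with the smallest p. Of 19 genes of folding in the endoplasmic reticulum 4 were lower, Ire1, X-linked Hsc70-3, Cnx99A and Ero1L, and 2 higher, CG1597 and TRAM, both X-linked. With the length trend removed Ero1L alone of the lower genes kept its call, and 4 genes were higher, among them Gp93 and TER94. The cytosolic ribosomal proteins, among the most abundant transcripts, had 1 of 24 higher, RpL18, which lost its call with the length trend removed (limma, adjusted p = 0.0571). Their median was 0.66 as fitted, beside -0.15 over all genes, and 0.38 with the length trend removed, beside 0.08. Values did not overlap for 14 members that stood higher and 5 that stood lower, beside 1343 and 1691 of all 3987 genes. Of 6 proteasome genes 0 were called by limma either way, with 0 at an unadjusted p under 0.05 as fitted. RpL21 shows the spread that such genes can have, at 2297 and 1984 RPKM in CBP knockdown and 1471 and 4636 RPKM in control.

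Isoforms of a gene could differ in direction. Of 391 genes with more than 1 listed isoform, 24 had all of them called lower, 1 had all called higher and 2 had isoforms called in both directions. These were PNUTS, which encodes a targeting subunit of protein phosphatase 1 in transcription termination, and Hip14, a palmitoyltransferase. One PNUTS mRNA stood at 23.9 and 20.5 RPKM in CBP knockdown, against 0.925 RPKM and under 0.01 RPKM in control (log2 fold change 4.06; limma over single features, adjusted p = 0.0264). A second stood at 0.67 and 1.39 RPKM in CBP knockdown, against 5.01 and 5.07 RPKM in control (-1.59; limma, adjusted p = 0.0351). The third was close to equal in both groups, at 3.79 and 3.92 RPKM in CBP knockdown and 3.52 and 3.94 RPKM in control. The 2 CBP knockdown samples therefore listed PNUTS mainly as an mRNA that both control samples held at low level. One Hip14 feature had 1.12 and 1.1 RPKM in CBP knockdown, against 9.34 and 6.8 RPKM in control, and another had 2.73 and 1.4 RPKM in CBP knockdown, against at most 0.265 RPKM in control. Such splits depend on how reads were divided among overlapping isoforms, which was not tested.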

How the data were processed

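Messenger RNA of 6 samples of S2 cells was sequenced after CBP, NAP-1 or control knockdown, 2 samples each, and grouped by their titles. The authors deposited 1 table of RPKM values per listed feature and the number of alignments per sample as a count. Per the submitters' processing notes the build was dm3, and the sources used here do not give the aligner, the counting program or its use of strand. Of 16381 features in the table, 5319 had a mean of at least 1 RPKM. Of these 906 repeated the values of another and 4 were left out for their names. The other 4409, with 2 nej mRNAs under the minimum, were summed per symbol to 3987 genes. Where features of 2 symbols had the same values, 1 symbol kept them. Features behave as isoforms, genes beyond the symbols 128up to NLaz and the listed RefSeq mRNAs were not analysed here, and how reads shared by isoforms were divided is unknown.

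Values of log2(RPKM + 1) were tested with limma 3.58.1 under R 4.3.3 in a single model of 3 group means over the 6 samples, a variance trend, and Benjamini-Hochberg adjustment at 0.05. No count model was applied, because RPKM is no count, and very low values are estimates that cannot be turned back into reads. Median transcript lengths and chromosome arms came from the Ensembl BDGP6 annotation by name, 2947 genes by symbol and 990 by an older symbol. That build differs from dm3, so no coordinates were taken. The length trend was a loess curve, span 0.5, of each sample's deviations from the mean of the samples, and it was subtracted. The fit was checked on simulated data. Each group has 2 samples, and the exact permutation test was run only for the X minus autosome gap.

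The members and gene lists were chosen with earlier results of these data known. Genes were named by a rule: nej, the 12 largest rises and falls called as fitted and with the length trend removed, without overlap and with a mean of at least 10 RPKM in the higher group, the 6 largest rises in the longest and falls in the shortest length bin, the 10 most abundant, and up to 6 called members of each list by p. Not every gene of the rule is described above: of the short falls only Ilp6 was, and of the most abundant only CR34335 and RpL21. The other short falls were CR43900, fok, CG15715, CR44138 and CG11555, all autosomal, with fold changes between -3.63 and -2.94. Members that complete a count, genes called only with the length trend removed, CG43194, the isoforms of PNUTS and Hip14, and Clamp, Pof and Sxl were named after their values were seen, as was the division by chromosome.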

Additional observations from a re-analysis of the deposited data

How the results depend on the processing

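The X minus autosome gap in the median log2 fold change, 0.61 in CBP knockdown against control, kept its sign under every alternative run. It moved beyond its spread over the 4 library pairs, an SD of 0.08, at pseudocounts of 0.1 (0.73) and 5 (0.34). Without CBP knockdown replicate 1 it did so as well (0.70). Those pairs share libraries, so this SD does not measure the spread of replicates. With the length trend removed the gap moved too (0.71), and fits with 4 samples or the replicate block also gave 0.71 there. Without single libraries it lay between 0.55 and 0.70, and up to 0.75 with the length trend removed. Removing the length trend and then centring X-linked and other genes separately in each sample took it to 0.057 by construction, and 289 genes were then higher and 370 lower, 78 and 85 of them X-linked. The gap between the longest and shortest genes, -1.35, was -1.90 and -0.61 at those pseudocounts and -0.97 with quantile normalization, and between -1.63 and -1.10 without single libraries.

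Against 339 higher and 693 lower, 275 were higher and 311 lower of the 2088 genes with a mean of at least 5 RPKM. Lower calls numbered 413 with quantile normalization and 389 with the length trend removed. In the middle 3 length bins, where fewer genes are tested, 195 were higher and 326 lower. With 4 samples in the fit 550 were higher. Without single libraries there were 0 to 541 higher and 0 to 737 lower. With the length trend removed the upper ends were 682 and 548, 4 samples gave 679 higher, and the cause was not tested. Replicate numbers are shared by the groups, but the deviations of same-numbered samples had correlations of mixed sign, 0.13 for CBP knockdown with control, -0.24 for CBP with NAP-1 knockdown and 0.24 for NAP-1 knockdown with control, so the numbers were not taken as a pairing. The block gave 190 higher, and with the length trend removed 154 higher and 159 lower.

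The nej call was lost at a pseudocount of 0.1 (-2.11), with median-of-ratios scaling (-1.14), quantile normalization (-0.56) and the replicate block (-1.26). With the length trend removed the value turned to 0.23, also with 4 samples or the replicate block, and to at most 0.31 without single libraries, and it was -0.41 with separate centring added. Without single libraries and with the trend kept it was -1.50 at its lowest. The collagen gene vkg turned to 0.20 with the length trend removed, also with 4 samples or the replicate block, to 0.22 with separate centring added, and to between 0.0029 and 0.40 without single libraries. Sin3A turned to 0.093 with the length trend removed and without control replicate 1. Without single libraries, with the trend kept or removed, vkg was -1.28 and Sin3A -2.26 at their lowest. For 181 genes, those named and called as fitted with Clamp, Pof, Sxl, Nap1, PNUTS and Hip14 added and nej left out, 1993 of 2739 values under the alternatives listed at the outset kept direction and call, 744 lost the call, 1 gained it and 1 turned. The alternative without any minimum mean was not run, and features averaging under 1 RPKM, other than 2 of nej, were not analysed here. Fits that joined removal of the length trend with another change, all alternatives for the X minus autosome gap, and the X-linked share without CR34335 were chosen after seeing the data. With 2 samples a group and RPKM in place of counts, depth gives no interval, and differences of genes near 1 RPKM were the least certain.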

Other observations

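Further lists, described here by their called members only, held small counts in CBP knockdown against control. Of 20 heat shock and cochaperone genes 0 were higher and 2 lower, the kinase cochaperone gene Cdc37 and Hop, which links the major chaperones and had no length. Cdc37 had 8.78 and 4.17 RPKM in CBP knockdown, against 18.1 and 17.4 RPKM in control, and kept its call with the length trend removed. Of 17 spliceosome genes 2 were higher, U2af50, an X-linked splice-site factor gene, and SmB, a core protein of the small nuclear particles, and 0 were lower. SmB lost its call with the length trend removed (limma, adjusted p = 0.0561), where CG6227 was called higher and CG11985 lower. Of 10 vesicle coat genes deltaCOP and Sec23 were higher and Sec24CD lower, so Sec23 and Sec24CD, whose products form the inner COPII coat together, had opposite calls. Sec23 had 25.1 and 32.5 RPKM in CBP knockdown, against 11.8 and 13.2 RPKM in control, and Sec24CD had 5.07 and 3.06 RPKM, against 18.2 and 14.54 RPKM in control. The call of Sec24CD was lost with the length trend removed (limma, adjusted p = 0.0721), where gammaCOP was called higher.

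Of 7 lysosomal genes 2 were higher, Hexo2 and the cathepsin gene Cp1, and 2 lower, LM408 and the membrane protein gene Lamp1, and Hexo2 and Cp1 kept their calls with the length trend removed. Of 7 apoptosis genes Dredd and p53 were higher and the caspase gene dream lower, and with the length trend removed dream lost its call (limma, adjusted p = 0.0808) and the caspase gene Ice was called higher. p53 had 17.1 and 21.4 RPKM in CBP knockdown, against 8.29 and 11 RPKM in control. Of 8 ecdysone-response genes ImpL3 and the kinase gene Eip63E were lower and Eip71CD, a methionine sulfoxide reductase, was higher, and all 3 kept their calls with the length trend removed. Of 7 phagocytosis genes 2 were lower, Mcr and shep, of which shep encodes an RNA-binding protein and no receptor, and both lost their calls with the length trend removed. Of 13 mitochondrial ribosomal protein genes mRpL14, X-linked, was higher and mRpS5 lower, both also with the length trend removed. In the JAK-STAT list TotM, a secreted stress peptide, was higher and Su(var)2-10, the PIAS inhibitor of STAT, lower at 0.204 and 0.797 RPKM, against 7.01 and 5.61 RPKM in control. TotM had 59.4 and 122 RPKM in CBP knockdown, against 0.571 and under 0.01 RPKM in control, and 69.3 RPKM in 1 of the NAP-1 knockdown samples, and lost its call once the length trend was removed (limma, adjusted p = 0.0571). Of 5 genes of the vacuolar proton pump Vha68-2 was lower, and not after that removal (limma, adjusted p = 0.0524).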
